A study of Homo sapiens with 8 samples.

Results

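The genes described here encode the TAK1 and IKK kinase complexes, the kinases and adaptors that stand between a cell-surface receptor and NFkB. They are a list of 10 genes taken by symbol from the 57992 genes counted in the data, and all 10 were found and passed the low-count filter. RNAseq was performed on 8 samples of RKO cells, an established human colon carcinoma cell line. In 4 samples A20 had been knocked down with an A20 siRNA, the other 4 had received a control siRNA, and all 8 had been given recombinant human wnt3a at 50 ng/mL for 24 hours. The knockdown therefore is compared only in wnt3a-treated cells, and no untreated sample was analysed here. Replicates are numbered 1 to 4 in each group, and neither the labels nor the methods say whether they were separate experiments or parallel cultures, so p-values and SDs cover the spread between these samples, which may be technical.

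TAK1 is a MAP3 kinase, encoded by MAP3K7, that is switched on when its adaptors TAB2 and TAB3 bind ubiquitin chains built at an activated receptor, with TAB1 as a further activating partner. TAK1 then phosphorylates the IKK complex, which consists of the catalytic kinases IKKα (CHUK) and IKKβ (IKBKB) and the ubiquitin-binding scaffold NEMO (IKBKG). IKK phosphorylates the inhibitor IkB, which is destroyed, and NFkB enters the nucleus. A slower, non-canonical route runs through NIK (MAP3K14), which phosphorylates IKKα. The IKK-related kinases TBK1 and IKKε (IKBKE) act mainly in the antiviral interferon response. A20, encoded by TNFAIP3, is a ubiquitin-editing enzyme that restrains this pathway at the ubiquitin chains. That restraint acts on proteins, whereas these data measure transcripts.

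For 1 of the 10 genes the sequence sets what the counts can show. Reads of 75 bases were mapped and counted only where their position was unique. In IKBKG, the NEMO scaffold (ENSG00000269335.5, chromosome X, 154541199 to 154565046, GRCh38), 75.7% of the 4480 windows of 75 bases that lie within its exons occurred at least once more in the genome, and 2804 of the 3391 repeated windows had a copy inside the pseudogene IKBKGP1 (chromosome X, 154639978 to 154648275). Such a window, shown to make the limit concrete, comes from the coding sequence at chrX:154560469-154560543 on the plus strand of GRCh38. Each of its letters is also found at chrX:154643895-154643969 on the minus strand, so that a read of this stretch has no unique position.
IKBKG: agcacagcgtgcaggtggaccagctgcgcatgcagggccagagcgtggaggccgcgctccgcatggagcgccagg
IKBKGP1 itself had 0 or 1 read in every sample. Among the other 9 genes, repeated windows made up 1.29% in TBK1, 0.116% in MAP3K7 and 0 in the remaining 7.

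Total counts ranged from 23912317 to 30022486 with control siRNA and from 21226451 to 34194273 with A20 siRNA. Levels are given as CPM, the read count scaled to a common library size with TMM factors, on which scale 3 reads amount to 0.0877 to 0.141 CPM. The targeted transcript, TNFAIP3, had 4.92, 5.83, 5.59 and 5.53 CPM in control replicates 1 to 4 and 3.47, 3.005, 3.40 and 3.43 CPM in the A20 siRNA replicates. It fell by 0.71 on the log2 scale (standard error 0.10), to 61.0% of control, with no overlap between the groups. The adjusted p was 0.00258 in the quasi-likelihood test of edgeR, Benjamini-Hochberg adjusted over all tested genes, which gave every adjusted p that is printed without another tool's name. An exact permutation test of the log2 CPM values, two-sided, gave the smallest p possible with 4 against 4, 0.0286. Of 12 colon epithelial markers, EPCAM, KRT8, KRT18 and CDX2 were above 1 CPM, and CDH1, KRT19, KRT20 and CDX1 had no read in any sample. The summed marker level was 140.3 to 151.6 CPM with control siRNA and 138 to 146.2 CPM with A20 siRNA. Immune markers summed to at most 1.48 CPM, nearly all of it CD68, with PTPRC and CD3E at 0, and the fibroblast and endothelial lists summed to at most 0.143 CPM. In bulk RNA, fewer cells with a transcript cannot be told apart from less of it per cell.

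Levels of different genes were compared per kilobase of exonic length. TAB2 was the most abundant, at 20.1 ± 0.132 CPM per kilobase with control siRNA (SD, n = 4). Percentiles among all tested genes were taken from the mean over all 8 samples, and TAB2 stood at percentile 82.3. CHUK followed at 11.6 ± 0.113 and MAP3K7 at 10.4 ± 0.285 CPM per kilobase (SD, n = 4 each), with percentiles of 70.7 and 67.8. TAB1 had 7.36 ± 0.138, TBK1 5.37 ± 0.107 and IKBKB 5.0 ± 0.194 CPM per kilobase (SD, n = 4 each). TBK1 and IKBKB were the only neighbours in the order whose control ranges overlapped, and IKBKB stood above TBK1 by its mean with A20 siRNA. TAB3 (2.88 ± 0.0541) and IKBKE (2.42 ± 0.146 CPM per kilobase) came next. MAP3K14, at 0.832 ± 0.050, and IKBKG, at 0.423 ± 0.0495 CPM per kilobase, were the lowest (SD, n = 4 each), at percentiles 20.2 and 11.4. If only the exonic length with unique windows is counted, which was chosen after seeing the data, the IKBKG level was 1.74 CPM per kilobase and the scaffold stood above MAP3K14 and below IKBKE.

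The order depended in part on which length was used. Per kilobase of the longest annotated transcript, TAB2 was again the highest, at 27.0, but MAP3K7 (20.2) exceeded CHUK (16.5) and TBK1 (13.3) and IKBKB (11 CPM per kilobase) exceeded TAB1 (10.2). The 4 lowest genes kept their order. The level of TBK1 per kilobase changed by the largest factor, since its annotated exons cover 14716 bases and its longest transcript 5944.

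**Figure D1:**
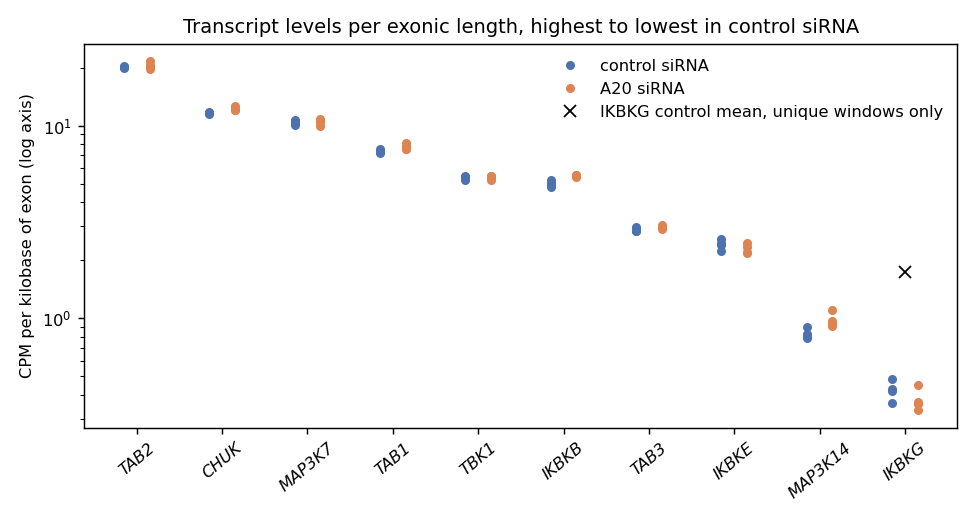
Points show CPM per kilobase of exon (log axis) in each of the 4 control siRNA and 4 A20 siRNA samples for the 10 genes, ordered by the control mean. TAB2 is highest at about 20.1 and IKBKG lowest at 0.423, and the cross marks IKBKG at 1.74 when only unique windows are counted.

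Among the catalytic IKK subunits, IKBKB was higher after A20 siRNA and was the single gene of the 10 to pass the test, which 1.25% of all tested genes passed. IKBKB (ENSG00000104365.13, chromosome 8, 42271302 to 42332460) encodes IKKβ, the main IkB kinase of the canonical route. Its control samples, replicates 1 to 4, had 57.95, 55.8, 54.3 and 52.9 CPM and its A20 siRNA samples 61.5, 60.2, 61.4 and 59.55 CPM. The groups were separate, with A20 siRNA above, and control replicate 1 was the closest to them. The means were 55.2 ± 2.15 and 60.65 ± 0.952 CPM (SD, n = 4 each). The difference was 0.13 on the log2 scale (standard error 0.03, adjusted p = 0.0428), a level 110% of control with a 95% interval for the increase of 4.80% to 14.9%. These intervals hold for a single gene and are not adjusted for the number of genes.

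The IKBKB call stood close to the threshold of 0.05. With DESeq2 the adjusted p was 0.0596 without a prior on fold changes and 0.0587 with the normal prior. IKBKB has 11048 exonic bases, and over all tested genes the log2 fold change was correlated with exonic length (Spearman's rho 0.18, over genes, which are not independent replicates). Within each sample, log2 CPM relative to each gene's mean over the 8 samples was also correlated with exonic length. This rho was 0.0794 in control replicate 1, the control with most IKBKB, and -0.20 to -0.111 in the other 3 controls. Among the A20 siRNA samples it was from -0.0816 to 0.178. After a correction of each sample for its length trend, the log2 fold change was 0.12 (adjusted p = 0.0554), and for length and GC content 0.11 (adjusted p = 0.0605). With the latter correction and the replicate number as a block together it was 0.11 and passed (adjusted p = 0.0337). When 1 sample was left out, the call held without control replicate 1 (adjusted p = 0.00494) and without A20 siRNA replicate 2 (0.0491). It was lost without control replicate 2, 3 or 4 (adjusted p = 0.117, 0.128 and 0.177) and without A20 siRNA replicate 1, 3 or 4 (0.0906, 0.137 and 0.0863). The direction was the same in each of these fits, and the log2 fold change lay between 0.11 and 0.16. What part the length trend had in the IKBKB difference was not tested beyond these corrections.

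**Figure D2:**
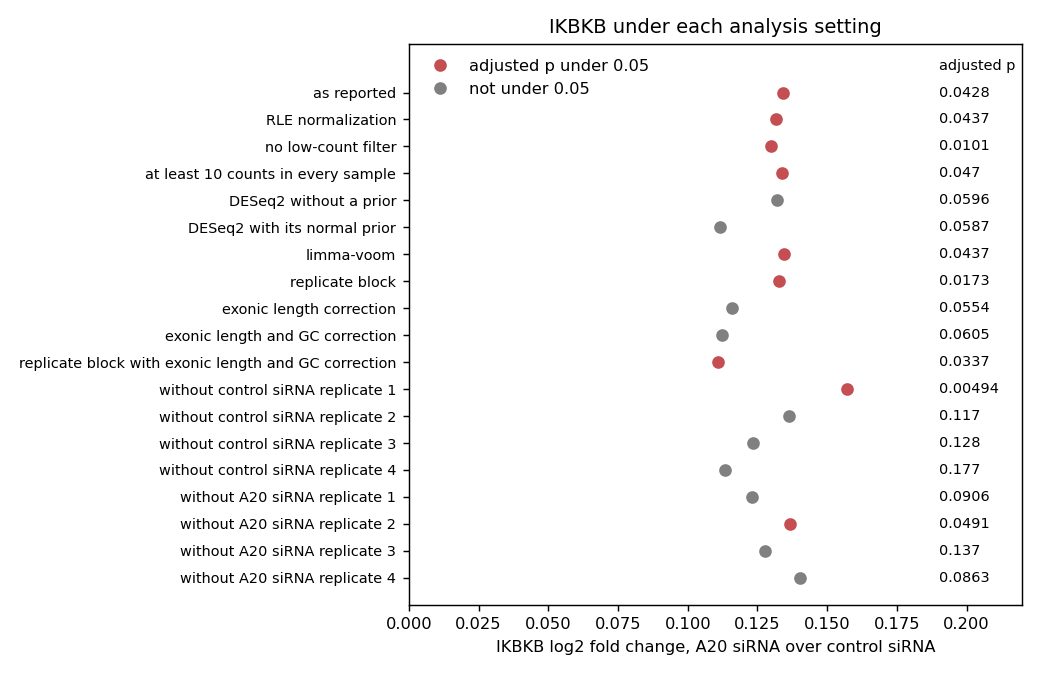
Each point is the IKBKB log2 fold change (A20 siRNA over control siRNA) in 1 analysis setting, with its adjusted p at the right and the colour giving the side of 0.05. The values lie between 0.11 and 0.16, and 8 of the 18 alternatives keep an adjusted p under 0.05.

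CHUK (ENSG00000213341.10, chromosome 10, 100188300 to 100229596) encodes IKKα, the kinase that both IKK routes use. It had 79.9, 79.8, 81.25 and 79.5 CPM in the control replicates and 86.9, 82.8, 82.9 and 83.9 CPM in the A20 siRNA replicates. The groups did not overlap, and A20 siRNA replicate 1 stood above the other 7 samples. The log2 fold change was 0.07 (standard error 0.03), which did not pass over all genes (adjusted p = 0.171), with an interval of 1.23% to 9.19% above control. The control replicates varied by 0.975%, less than the 2.14% that counting alone gives at this depth.

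IKBKG, the NEMO scaffold, was covered by 41 to 68 reads per sample. The control replicates had 2.26, 2.62, 1.97 and 2.32 CPM and the A20 siRNA replicates 1.98, 2.43, 1.8 and 1.93 CPM. The groups overlapped. The A20 siRNA sample was the lower one for each of the 4 replicate numbers, but these numbers were not taken as pairs. On the log2 scale the difference was -0.16 (standard error 0.14, adjusted p = 0.615), and its interval, from -27.1% to 9.38%, was the widest of the 10 on the log2 scale.

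MAP3K14 (ENSG00000006062.13, chromosome 17, 45263119 to 45317029) encodes NIK, the kinase of the non-canonical route, whose protein is kept low by constant degradation. It had 5.12, 4.58, 4.47 and 4.69 CPM in the control replicates and 5.13, 5.37, 5.44 and 6.25 CPM in the A20 siRNA replicates. The groups did not overlap, but control replicate 1 and A20 siRNA replicate 1 were nearly the same. The log2 fold change was 0.22 (standard error 0.09), with an interval of 2.10% to 32.3%, and it did not pass (adjusted p = 0.232). With the normal prior of DESeq2, which shrinks changes of low counts, it was 0.09, below the 0.11 of IKBKB. It rests on 111 to 176 reads per sample, and 858 of its exonic bases overlap MAP3K14-AS1 on the opposite strand, which had 19 to 29 reads per sample. The strand setting of the counts is not given in the sources used here.

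MAP3K7 (ENSG00000135341.17, chromosome 6, 90513573 to 90587086), which encodes the kinase TAK1 itself, had 100.6, 98.4, 102.4 and 96.15 CPM in the control replicates and 102.1, 95.2, 99.2 and 103.3 CPM in the A20 siRNA replicates. The groups lay over each other. They differed by 0.01 on the log2 scale (standard error 0.03, adjusted p = 0.937), with an interval from -3.67% to 4.81%.

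TAB1 (ENSG00000100324.13, chromosome 22, 39399778 to 39437060), the partner that promotes TAK1 autophosphorylation, had 33.3, 32.7, 32.3 and 31.85 CPM in the control replicates and 35.8, 33.34, 34.5 and 33.4 CPM in the A20 siRNA replicates. The lowest A20 siRNA sample, at 33.34 CPM, was just above the highest control, at 33.26 CPM. The log2 fold change was 0.08 (standard error 0.04) and did not pass (adjusted p = 0.304), with an interval of 0.0651% to 11.3%.

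TAB2 (ENSG00000055208.18, chromosome 6, 149218641 to 149411613) and TAB3 (ENSG00000157625.15, chromosome X, 30827442 to 30975084) encode the paralogous adaptors that bind ubiquitin chains. TAB2 had 122.1 to 124.1 CPM with control siRNA and 119.8 to 131.7 CPM with A20 siRNA, so the A20 siRNA samples enclosed the controls. The log2 difference was 0.02 (standard error 0.03, adjusted p = 0.712). TAB3 had 35.7 to 37.2 CPM with control siRNA and 36.2 to 38.1 CPM with A20 siRNA, with overlapping groups and a log2 difference of 0.03 (standard error 0.03, adjusted p = 0.681). The intervals reached 5.76% higher for TAB2 and 7.5% higher for TAB3.

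TBK1 (ENSG00000183735.9, chromosome 12, 64452090 to 64502114), a kinase of interferon regulatory factors, had 79.15, 80.8, 79.3 and 77.0 CPM in the control replicates and 80.1, 77.1, 78.9 and 80.4 CPM in the A20 siRNA replicates. The groups overlapped in full, and the interval of the difference ran from -3.74% to 3.99% (adjusted p = 0.995). IKBKE (ENSG00000263528.7, chromosome 1, 206470476 to 206496889), its relative IKKε, had 9.11, 9.27, 9.79 and 8.45 CPM in the control replicates and 9.29, 8.84, 8.35 and 8.27 CPM in the A20 siRNA replicates. The groups overlapped, with a log2 difference of -0.07 (standard error 0.07, adjusted p = 0.682) and an interval from -13.6% to 5.3%.

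**Figure D3:**
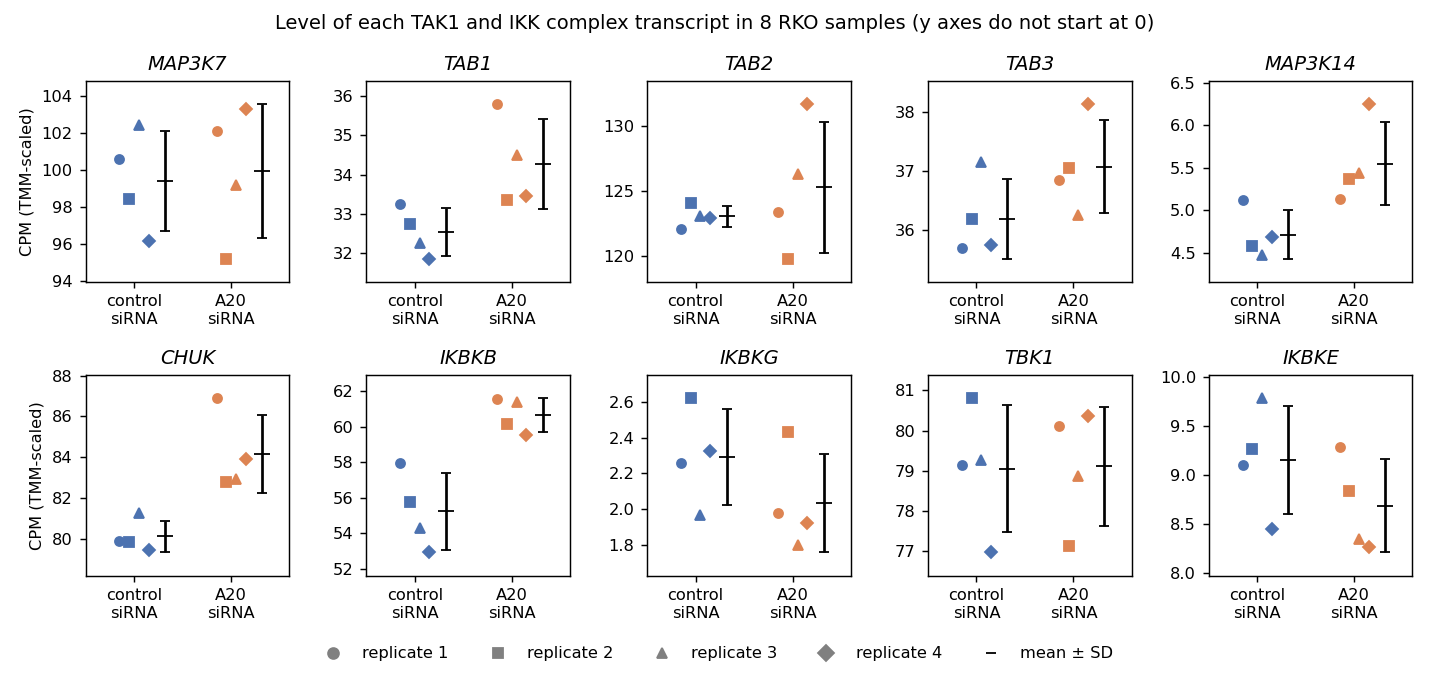
Each panel gives the CPM of 1 gene in the 4 control siRNA (blue) and 4 A20 siRNA (orange) samples, with the mean ± SD beside the points and y axes that do not start at 0. The groups are separate for TAB1, MAP3K14, CHUK and IKBKB and overlap for the other 6 genes.

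Of the 10 genes, 1 was called higher and 0 lower, where 1.25% of the 13412 tested genes were called in either direction at an adjusted p under 0.05. At an unadjusted p under 0.05 there were 4, CHUK, IKBKB, TAB1 and MAP3K14, against 16.2% of all tested genes. For the same 4 genes the CPM of the groups did not overlap, against 7.61% of all tested genes, with the A20 siRNA samples above in each gene. With 10 genes these shares are a description, and they rest on the same samples. Without control replicate 1 the test called 430 genes lower and 567 higher in all, and without A20 siRNA replicate 3 it called 6 in each direction, so that the background moves with single samples. The median log2 fold change was 0.03, beside 0.00 for all tested genes. The median exonic length of the 10 genes was 6506 bases, above the 4982 of all tested genes.

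**Figure D4:**
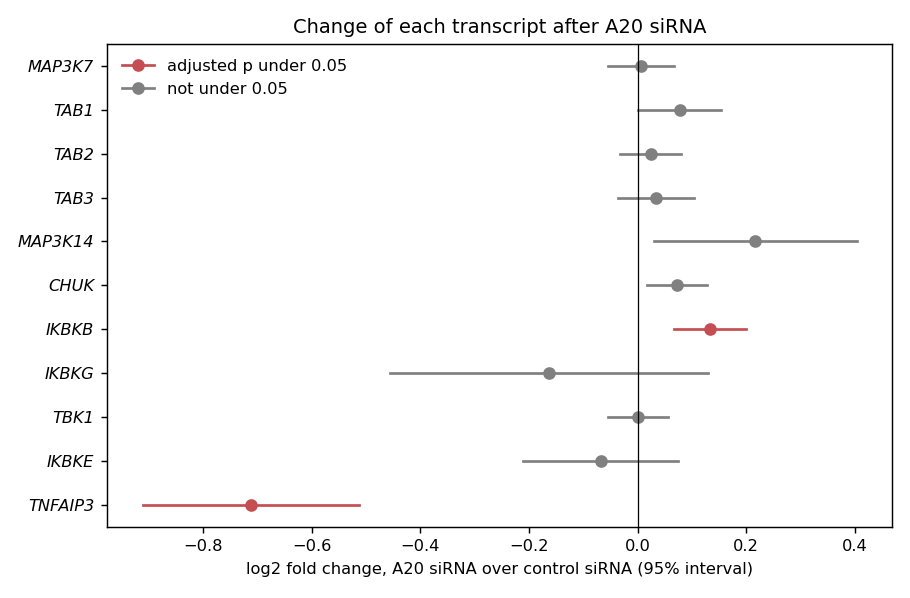
Points are log2 fold changes (A20 siRNA over control siRNA) with 95% intervals for the 10 genes and for the targeted gene TNFAIP3, red where the adjusted p is under 0.05. IKBKB at 0.13 and TNFAIP3 at -0.71 pass, and the widest intervals belong to IKBKG, MAP3K14 and TNFAIP3.

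The balance between partners was described by the log2 ratio of their levels per exonic length within each sample. CHUK exceeded IKBKB by 1.22 ± 0.0581 with control siRNA and 1.15 ± 0.0303 with A20 siRNA (log2 ratio, SD, n = 4 each), and the groups overlapped. TAB2 exceeded its paralog TAB3 by 2.81 ± 0.0252 and 2.80 ± 0.0492, which is 7-fold in the controls, again with overlap. TBK1 exceeded IKBKE by 1.16 ± 0.0702 and 1.23 ± 0.0851. The log2 ratio of TAB1 to MAP3K7 was -0.50 ± 0.037 and -0.44 ± 0.0553, and that of MAP3K14 to CHUK -3.80 ± 0.0925 and -3.64 ± 0.138. The groups overlapped for all 5 ratios. With the longest transcript as the length, CHUK exceeded IKBKB 1.5-fold in place of 2.32-fold and TBK1 exceeded IKBKE 4.71-fold in place of 2.23-fold, so the size of these ratios depended on the length chosen.

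Other genes of the pathway were read from 7 lists with 94 genes in the data, of which 84 passed the low-count filter. Of all tested genes, 1.25% were called in either direction, the share to set beside the counts per list. Of 20 tested receptor-proximal activators, 1 was higher and 0 were lower, with a median log2 fold change of 0.02. The called gene was BIRC3, which encodes the ubiquitin ligase cIAP2 and is itself an NFkB target. It went from 11.1 ± 0.813 to 13.7 ± 0.859 CPM (SD, n = 4 each). The difference of 0.30 on the log2 scale (standard error 0.06) passed with an adjusted p of 0.0333, and was lost without control replicate 2 or 4 or A20 siRNA replicate 3 (adjusted p = 0.0844, 0.119 and 0.121). Of 14 NFkB target transcripts in the data, 8 were tested, of which 2 were higher and 0 lower, with a median of 0.00. These were the chemokine CXCL8, at 0.388 ± 0.0362 and 1.03 ± 0.216 CPM (log2 fold change 1.41, adjusted p = 0.0106), and the adaptor TRAF1, at 1.48 ± 0.159 and 2.41 ± 0.313 CPM (SD, n = 4 each, log2 fold change 0.72, adjusted p = 0.0276). CXCL8 rests on 8 to 44 reads per sample and was lost without control replicate 4 (adjusted p = 0.0507). That control had 8 reads, under the filter's minimum count of 10. The filter asks for 4 samples, so CXCL8 passed it only through its A20 siRNA samples. The CXCL8 test is therefore not independent of the filter. TRAF1 was lost without control replicate 2, 3 or 4 or A20 siRNA replicate 3 (adjusted p = 0.0687, 0.0696, 0.102 and 0.102). The target transcripts CXCL1, CXCL2, CXCL3, CCL2, CCL20 and IL6 did not pass the low-count filter. With control and A20 siRNA, CXCL1 had 0.106 and 0.1 CPM, CXCL2 0.225 and 0.248 CPM, and CXCL3 0.381 and 0.343 CPM. CCL20 had 0.0098 and 0.0089 CPM, and CCL2 and IL6 were at 0.

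No gene was called in the other 5 lists, in which an unadjusted p under 0.05 was reached by 0 of 11 ubiquitin-linked brakes, 2 of 11 NFkB and IkB proteins, 3 of 9 TBK1 adaptors and substrates, 1 of 11 genes of the TAK1 MAP kinase branch and 2 of 14 other MAP3 kinases (edgeR), beside 16.2% of all tested genes. Among the NFkB and IkB proteins, the subunit REL had a log2 fold change of 0.25 (adjusted p = 0.0752) and the nuclear IkB family member NFKBIZ 0.15 (adjusted p = 0.0989). Without control replicate 1, REL, NFKBIZ, MAVS and MAPKAPK2 passed (adjusted p = 0.0373, 0.0194, 0.00518 and 0.0276), and REL passed also without A20 siRNA replicate 2 (0.0304), when no low-count filter was applied (0.00375) and in the fit blocked on replicate number without (0.0282) and with the length and GC correction (0.0332). In the brakes, TNIP1, which binds A20, was at -0.06 (adjusted p = 0.328) and SPATA2, which links CYLD to the receptor, at -0.06 (adjusted p = 0.403). The antiviral adaptor MAVS was at 0.08 (adjusted p = 0.111) and the autophagy receptor SQSTM1 at -0.07 (adjusted p = 0.188). Downstream of TAK1, MAPKAPK2, a kinase activated by p38, was at -0.07 (adjusted p = 0.173) and MAP2K7, an activator of JNK, at 0.05 (adjusted p = 0.386). Among the MAP3 kinases other than TAK1 and NIK, MAP3K10 was at 0.15 (adjusted p = 0.258) and MAP3K20 at 0.05 (adjusted p = 0.304). The medians of these 5 lists lay between -0.03 and 0.02.

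TNFAIP3 is itself a known NFkB target. Promoter windows of 300 bases around the transcription start (RefSeq, GRCh38.p14) were searched on both strands for a form of the NFkB motif, GGG followed by any 2 bases and TTTCC, which was chosen after seeing the data. IKBKB had no entry among these windows. Of the 13 windows of the other 9 genes, 0 held it, beside 1.91% of 35116 windows of all genes. The TNFAIP3 window held 2 matches. They are shown in capitals in the stretch chr6:137867182-137867223, read on the plus strand. There the motif appears as its reverse complement, GGAAA followed by any 2 bases and CCC.
TNFAIP3: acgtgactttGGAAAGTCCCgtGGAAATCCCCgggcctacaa
The absence of a match says only that these letters were not in the windows searched.

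By the root mean square difference of centred log2 CPM over the 8 samples, the genes whose profile was nearest to that of MAP3K7 were EFR3A (0.0115), PPP6R3 (0.0136) and SRFBP1 (0.0165), where MAP3K7 itself varied with an SD of 0.0431. For IKBKB, TIMM44 (0.0189) and ARGLU1 (0.0207) were the nearest, against an SD of 0.0826. These genes were picked as the smallest differences among the tested genes, so a close match follows from the choice. Shared regulation was not tested.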

How the data were processed

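RNAseq counts of 8 samples were analysed. The authors trimmed reads with Trimmomatic, mapped them with STAR to GRCh38.p7 and deposited raw counts of uniquely mapping 75-base single reads from poly(A) RNA per GENCODE gene. The tool versions, the GENCODE release and the strand setting are not given in the sources used here. Groups were taken from the siRNA label. Counts were filtered with edgeR 4.0.16 (filterByExpr, minimum count 10; 13412 of 57992 genes kept), scaled by TMM and tested with the quasi-likelihood test in R 4.3.3, without covariates, with Benjamini-Hochberg adjustment over all tested genes and a threshold of 0.05. Standard errors came from the log2 fold change and F. Symbols, coordinates and lengths were matched by Ensembl identifier to GENCODE release 44 on GRCh38 (56948 genes matched).

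The genes, lists and tests were chosen with earlier results of these data known. Named besides the 10 genes were TNFAIP3 and, of each list, the genes that passed or, with none, the 2 of smallest p, overlapping or copied genes, and the 3 nearest profiles to MAP3K7 and IKBKB, some of which are not reported here. The alternatives were RLE scaling, other filters, DESeq2 1.42.0, limma-voom (limma 3.58.1), the replicate number as a block, loess corrections (span 0.5) for exonic length and GC content, and each sample left out. Same-numbered samples did not deviate together (correlations from -0.00982 to 0.0838), so the numbers were not taken as pairs. The 12 replicate pairs differed by more than sampling noise (chi-square per degree of freedom from 1.29 to 3.43). Floors cover counting error only. The pipeline was tested on simulated data.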

Additional observations from a re-analysis of the deposited data

Results flagged for a closer look

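In 22 groups of 4 samples (the 10 genes and TNFAIP3 in each siRNA group), 1 sample lay far from the others, where chance gives 1.1. It was TNFAIP3 in A20 siRNA replicate 2, at 3.005 CPM against 3.40 to 3.47 CPM in the other A20 siRNA samples, a gap of 0.847 of the group's range. IKBKB was higher after A20 siRNA also without that sample (log2 fold change 0.14, adjusted p = 0.0491, edgeR).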

How the results depend on the processing

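TNFAIP3 was lower and passed in each of the 18 alternatives, with log2 fold changes from -0.77 to -0.67 with 1 sample left out and -0.25 with DESeq2's normal prior. Of the 10 genes, 1 was called higher, and this count became 0 with DESeq2 with and without the prior and with either correction for length or length and GC content, and was 0 to 1 with 1 sample left out. No gene of the 10 was called lower in any alternative, and none of the 9 genes other than IKBKB passed in any. Against 82 lower and 85 higher genes in all, the test called 310 and 314 when no low-count filter was used, 212 and 262 under the replicate block, 221 and 237 under the block combined with the correction for length and GC, and 6 to 430 and 6 to 567 with 1 sample left out, highest when control replicate 1 and lowest when A20 siRNA replicate 3 was removed. The cause was not tested. With the replicate block IKBKB passed (adjusted p = 0.0173), and no other call among the 10 genes changed under the block. Of the genes in the 7 pathway lists, 3 were higher, against 1 with DESeq2's normal prior and 0 to 6 with 1 sample left out, and 0 were lower, against 0 to 1. Named genes of these lists kept their sign in every alternative in which they were fitted. CXCL8 was not fitted with at least 10 counts in every sample. DESeq2 gave no adjusted p for CXCL8, and none for TRAF1 with the prior, under which their log2 fold changes were 0.11 and 0.14 and that of BIRC3 0.17. Levels per kilobase moved for all 10 genes with the longest transcript as length.

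Differences near 0 changed sign. TBK1 was at -0.0016 with RLE scaling, -0.0034 without a filter, -0.0016 and -0.0014 with DESeq2 without and with the prior, -0.0276 with the length correction, -0.0109 with the length and GC correction and -0.0111 with the block added. With 1 sample left out it ran from -0.0128 to 0.0115, MAP3K7 from -0.0096 to 0.0283 and TAB2 from -0.00023 to 0.0436. MAP3K7 was at -0.0064 with the length correction. Depth limits IKBKG and MAP3K14 most, where counting alone gives 13.2% and 8.57% of spread per sample.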
